A study of Mus musculus with 10 samples.

Results

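The genes of bone morphogenetic protein (BMP) and transforming growth factor beta (TGF-beta) signalling were examined for CpG methylation in mouse embryos. The set holds 44 genes: 26 ligands, 7 receptors, 3 secreted antagonists and 8 Smads. The Nodal inhibitor genes Lefty1 and Lefty2 and the inhibin subunit gene Inha are counted with the ligands. They were chosen by their place in the pathway, with earlier results of these data known. The choice was made out of 20665 autosomal protein-coding genes in the RefSeq annotation of GRCm38.p6, whose coordinates are those of mm10. The samples were whole embryos of embryonic day 7.5, 5 labelled control and 5 labelled arsenic, from the study's experiment 2. The DNA was profiled by reduced representation bisulfite sequencing, which samples CpG-rich fragments and reads unmethylated cytosines as T. The sources used here state no strain, sex, arsenic dose or timing of exposure. The labels do not say whether embryos shared a litter, and no marker of the tissue can be checked in DNA methylation data.

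The count table numbers its libraries 1 to 10, while the labels number each group 1 to 5. No library could therefore be tied to a group, the 2 groups were not compared, and each value below describes all 10 libraries together. A level is the percentage of reads that were methylated at a cytosine, averaged over the cytosines of a region. It is given with the counts of the 10 libraries summed, beside the lowest, median or highest library. Because the libraries mix both groups, no mean with SD and no test between groups is given. Coverage summed over the 2391795 cytosines was between 94583116 and 127102232 reads per library, and every cytosine had at least 10 reads in each.

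BMP and TGF-beta ligands are secreted dimers that bring together type I and type II serine/threonine kinase receptors. The receptors phosphorylate receptor-regulated Smads, which enter the nucleus with Smad4, while Smad6 and Smad7 inhibit the pathway and antagonists such as noggin, chordin and gremlin bind ligands outside the cell. Around gastrulation, BMP4 from the extraembryonic ectoderm supports mesoderm and primordial germ cell formation, and Nodal and its Lefty inhibitors pattern the axis. In vertebrate genomes, CpG-dense gene starts are usually unmethylated, and gene bodies are usually methylated.

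Each gene was divided into the 1000 bp on either side of its ends and the body between them, and a region counted as measured with at least 3 cytosines. The end where transcription begins (the start end) and the end where it stops (the finish end) were told apart for 30 genes whose strand the RefSeq promoter table gives. For the other 14, the ends are named lower and upper by coordinate. All 44 genes had at least 1 measured region, 41 had a measured end, and 39 had a measured body.

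The 250 bases before the start of 4 members are shown because they carry the contrast between low and high starts: Bmp4 and Bmpr2 were low there, Gdf2 and Inha were high. The start is the one in the RefSeq promoter table, which for Inha lies 532 bp inside the annotated gene end that is used for the other Inha values. They are RefSeq sequences of build GRCm38.p6, written 5′ to 3′ along the gene. Capitals mark the assayed cytosines, as a C on the gene's own strand or as the G opposite a cytosine of the other strand.
Bmp4 (chr14:46390670-46390919, minus strand): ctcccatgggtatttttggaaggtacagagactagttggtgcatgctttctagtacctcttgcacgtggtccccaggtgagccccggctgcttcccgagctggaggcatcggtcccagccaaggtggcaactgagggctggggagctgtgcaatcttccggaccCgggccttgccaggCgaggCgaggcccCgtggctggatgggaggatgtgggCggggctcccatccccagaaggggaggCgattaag
Bmpr2 (chr1:59764029-59764278, plus strand): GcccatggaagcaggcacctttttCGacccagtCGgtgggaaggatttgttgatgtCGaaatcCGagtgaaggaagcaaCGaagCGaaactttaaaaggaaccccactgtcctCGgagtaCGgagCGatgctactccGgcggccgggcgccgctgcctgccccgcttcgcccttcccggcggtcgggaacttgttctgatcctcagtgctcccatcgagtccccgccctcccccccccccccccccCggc
Gdf2 (chr14:33940789-33941038, plus strand): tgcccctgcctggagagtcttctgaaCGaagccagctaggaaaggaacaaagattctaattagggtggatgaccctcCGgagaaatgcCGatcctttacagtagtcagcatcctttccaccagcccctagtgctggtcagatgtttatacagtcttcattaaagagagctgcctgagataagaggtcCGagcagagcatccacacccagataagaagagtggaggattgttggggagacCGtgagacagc
Inha (chr1:75507359-75507608, plus strand): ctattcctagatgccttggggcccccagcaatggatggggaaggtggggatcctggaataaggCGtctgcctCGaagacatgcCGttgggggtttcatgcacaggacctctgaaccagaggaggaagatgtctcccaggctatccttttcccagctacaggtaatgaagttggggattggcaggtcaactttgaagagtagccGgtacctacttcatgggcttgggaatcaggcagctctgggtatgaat

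In these stretches Bmp4 had 11 CpGs and 6 assayed cytosines at 5.27% (1.39% to 8.16% over the libraries), and Bmpr2, a type II BMP receptor, had 22 CpGs and 21 assayed cytosines at 0.730%. Gdf2, which encodes the circulating ligand BMP9, had only 5 CpGs, and its 10 assayed cytosines were at 57.99% (52.2% to 65.9%). Inha, the alpha subunit of inhibin, had 4 CpGs and 7 assayed cytosines at 61.8% (42.8% to 73.0%). The highest library at Bmp4 and at Bmpr2 was far below the lowest at Gdf2 and Inha, a contrast for which the 4 were chosen.

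Bmp4 was methylated at its finish end and not at its start end. The gene lies on chromosome 14 (46383525 to 46390669) on the minus strand, so transcription starts at the higher coordinate. The start end was at 6.63% over 10 cytosines, and libraries 1 to 10 were at 5.31%, 3.30%, 4.24%, 8.08%, 7.11%, 6.15%, 5.65%, 8.26%, 7.74% and 8.42%. The finish end was at 70.3% over 37 cytosines, and the libraries in the same order were at 65.6%, 70.8%, 69.5%, 71.9%, 72.2%, 69.1%, 70.3%, 69.0%, 69.2% and 72.97%. Every library was low at the start and high at the finish, 63.7 points apart in the summed counts. The start end rested on 2211 reads with a methylated share of 7.51% (95% Wilson interval 6.48% to 8.68%), and the finish end on 21346 reads with a share of 70.7% (70.03% to 71.3%). These intervals cover counting error only and are too narrow, since a read counts at each CpG that it spans.

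Along the gene, low methylation was found at every assayed stretch from the start to 4999 bp into it, and the change came between that point and 6061 bp, a stretch without assayed cytosines. The 10 cytosines at 1152 to 1547 bp were at 6.08%, the 8 at 2370 to 2462 bp at 2.35%, and the 41 at 4671 to 4999 bp at 11.8%. The 42 cytosines at 6061 to 6574 bp were then at 71.5%, with a library range of 68.01% to 73.9%. The last of these is 570 bp short of the annotated finish, and the sequence from there to 1000 bp past the finish had none. The methylated finish end is thus a block inside the gene. No assayed cytosine of the block lies in Gm15217, a long noncoding RNA gene on the opposite strand whose span reaches into the window from the other side. Exons were not analysed here. Further along, 26 cytosines at 9825 to 10077 bp from the start were at 19.4% and 11 at 11004 to 11114 bp were at 68.4%, so the block was not the edge of a uniformly methylated flank.

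**Figure D1:**
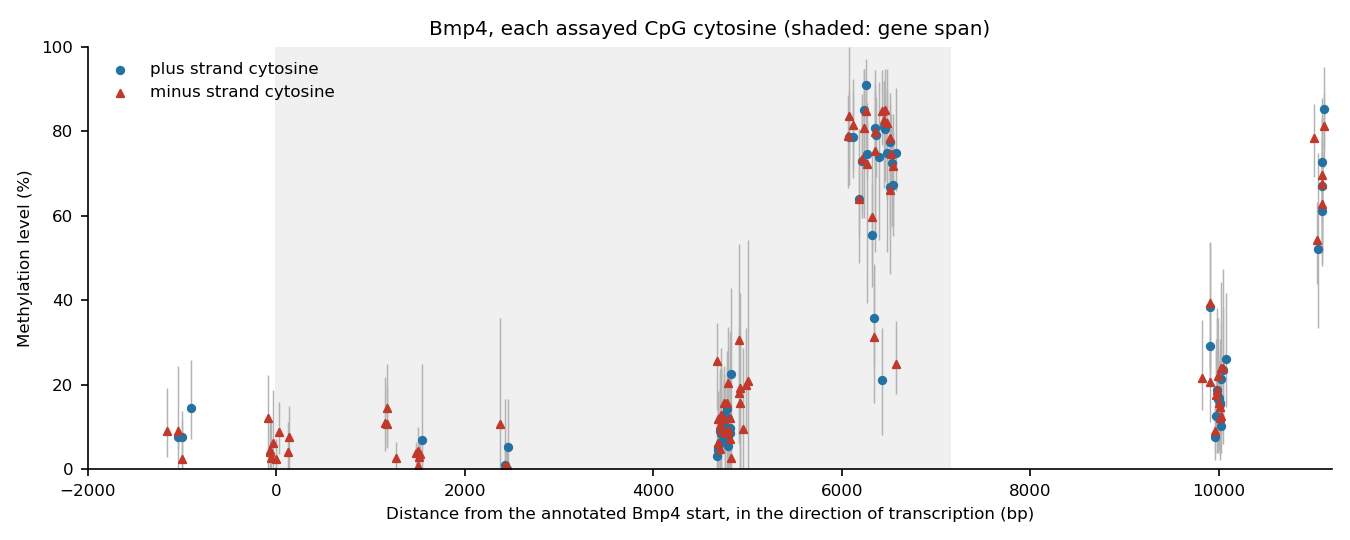
Methylation level (%) of each assayed CpG cytosine of Bmp4 against its distance from the annotated start in bp, in the direction of transcription, with grey lines for the range over 10 libraries and shading for the gene span. Cytosines up to 4999 bp lie below 31%, and nearly all of those at 6061 to 6574 bp lie above 50%.

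A pair of CpGs in the Bmp4 block differed between strands. At 6425 bp the plus strand was at 21.0% (8% to 33.3% over the libraries) and the minus strand of the same CpG at 84.7% (76.7% to 94.4%). At 6574 bp it was the minus strand that was low, at 24.9%, against 74.9% on the plus strand. Over all members, 13 of 2008 CpGs read on both strands were at least 40 points apart, in 8 genes. This was 0.647% of them, below the 1.37% of 745717 autosomal CpGs read on both strands. The widest were in the body of Smad2, where a CpG was at 7.68% on the plus and 87.6% on the minus strand and another at 88.2% and 8.45%. In each of these 4 CpGs the library ranges of the strands did not overlap, so all libraries shared the difference. In Smad3, Smad6 and Smad9, as in Bmp4, discordant CpGs came in close pairs with opposite strands low. They lay at 102259 and 102408 bp in Smad3, 46146 and 46296 bp in Smad6, and 15074 and 15223 bp in Smad9. The cause of the strand differences was not tested, so they are not read as a trait of the embryos.

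Among the 26 measured start ends, 14 were under 5%, which is 53.8% against 64.7% over all genes, and 4 were at 20% or more. The share at 20% or more was 15.4%, near the 17.1% found over 10552 start ends of autosomal protein-coding genes. The median of the members was 2.55% (2.37% to 4.02% over the libraries), against 2.36% for all genes. The start ends were therefore ordinary as a set, and the medians of the roles within the set differed.

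Receptors and Smads were low at the start end of each measured gene. The 7 receptor starts had a median of 1.24% (library medians 0.545% to 2.28%), from Acvr2a, an activin type II receptor, at 0.750% to Bmpr1b, a BMP type I receptor, at 7.33% (5.39% to 9.32%). The 5 Smad starts had a median of 1.73% (1.02% to 3.64%), from the inhibitory Smad6 at 0.988% to Smad5, an effector of BMP receptors, at 12.7% (9.25% to 14.3%). Neither role had a start end at 20% or more. For Bmpr1b, however, the promoter table gives no start at that end, and the outermost start it gives was at 54.7%. With windows of 2000 bp the medians were 2.20% for receptors and 3.13% for Smads. The higher Smad starts were mixed rather than evenly methylated. At Smad5 the 20 cytosines 1000 to 501 bp before the start were at 38.2%, while the 15 in the next 500 bp were at 0.941%. At Smad9, the other Smad of this kind above 10%, 5 cytosines in the outer stretch were at 46.1% and 33 cytosines in the first 500 bp of the gene were at 3.25%.

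Ligand starts were higher by their median. The 12 measured ones had a median of 6.11%, and the library medians, from 4.36% to 7.85%, lay above those of receptors and of Smads without overlap. That spread is over libraries of the same genes and not between genes. Single genes of the roles overlapped: ligands ran from 1.34% to 62.5%, receptors from 0.750% to 7.33% and Smads from 0.988% to 12.7%. The lowest were Tgfb1 at 1.34%, Inhbb, an activin beta subunit, at 1.48%, and Gdf11 at 1.84%. The highest was Gdf2 at 62.5% over 18 cytosines, where the lowest, median and highest libraries were at 58.6%, 62.2% and 71.2%. Gdf15, a cytokine induced by cell stress, followed at 49.5% over 8 cytosines (34.5%, 50.5% and 63.03%), all of which also lie in Gm34154, a long noncoding RNA gene on the opposite strand. With windows of 2000 bp the Gdf15 start was at 24.2%, and around a second annotated start 375 bp into the gene 23 cytosines were at 25.2% (18.5% to 30.5%). Gdf10, a relative of Bmp3, was at 24.5% over 27 cytosines (21.5%, 24.9% and 26.7%), 6 of which lie in the long noncoding RNA gene Gm30031. In the windows of 1000 bp all 10 libraries were above 20% at each of the 3. Gdf10 was uneven, at 11.9% over 10 cytosines in the 500 bp before the start and 37.3% over 8 cytosines 501 to 1000 bp after it. No role was compared by a test, and the number of cytosines moved with the roles: its median was 45.5 per start for ligands, 73 for receptors and 65 for Smads.

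The antagonists had 2 measured starts. Grem1, which encodes gremlin, was at 15.1% over 21 cytosines (10.8% to 23.6%). Chrd, which encodes chordin, was at 50.2%, but over only 3 cytosines that lie within Thpo, and the libraries spread from 31.6% through a median of 51.3% to 61.05%. Within 1000 bp of the Chrd start in the promoter table, 1702 bp further in, no cytosine was assayed. The Chrd value therefore describes sequence upstream of that start. Nog, the noggin gene, whose strand the table does not give, was at 1.81% over 99 cytosines at its upper end (1.12% to 2.63%).

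**Figure D2:**
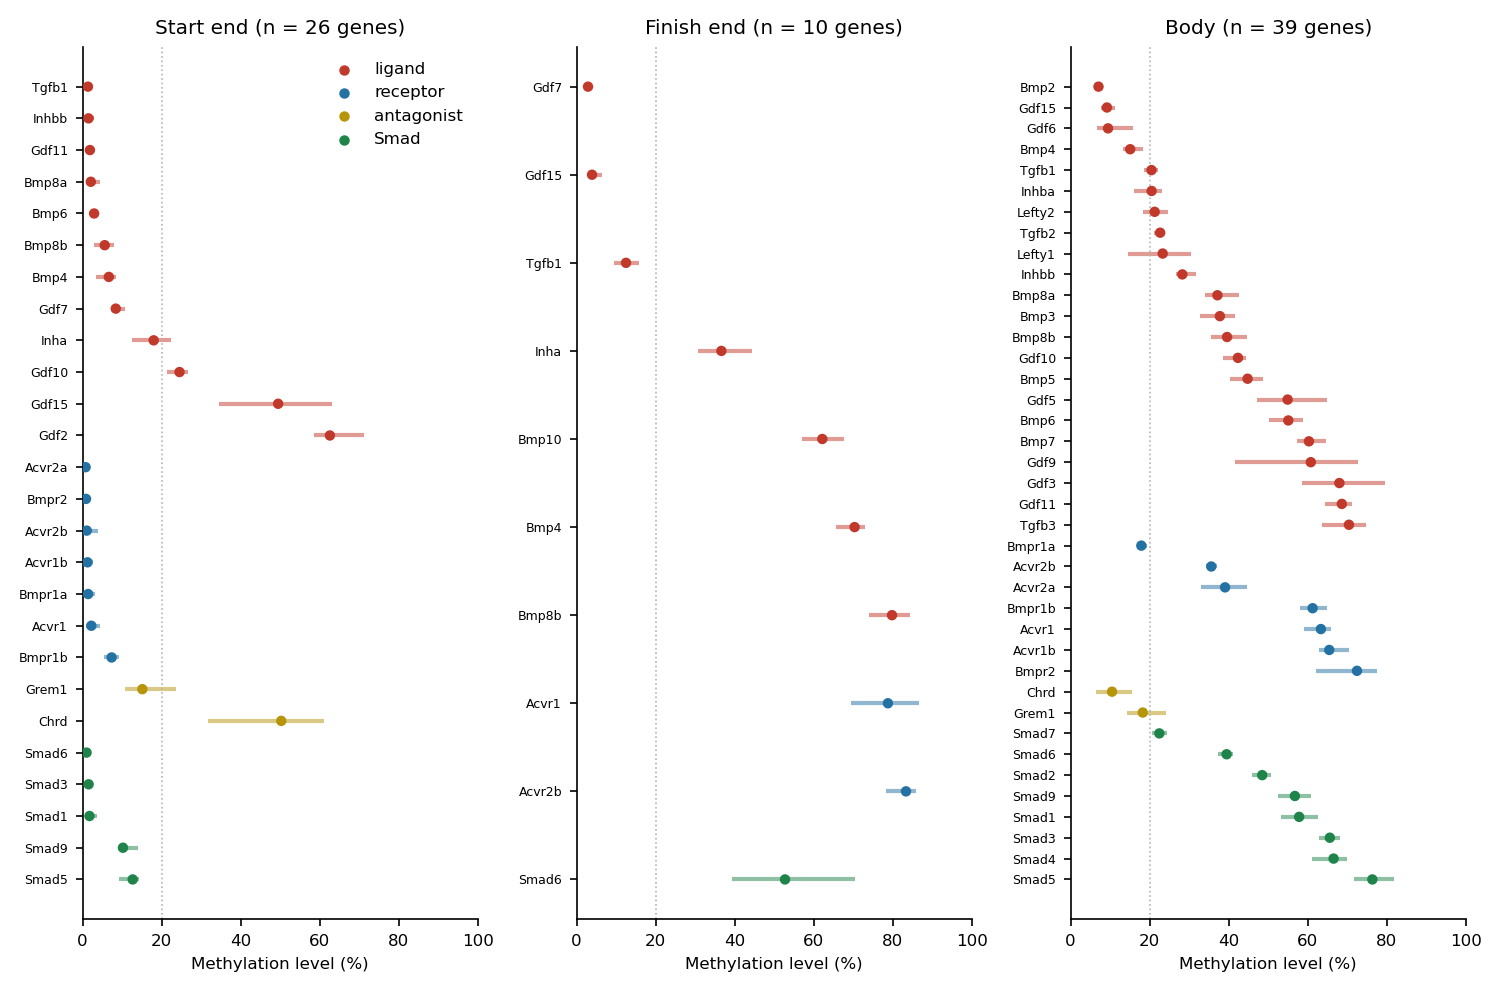
Methylation level (%) of the start ends (26 genes), finish ends (10 genes) and bodies (39 genes), 1 row per gene, coloured by role; points are the 10 libraries summed, bars run from the lowest to the highest library, and the dotted line is 20%. Of the 26 start ends 18 lie under 10% and 4 (Gdf2, Chrd, Gdf15 and Gdf10) above 20%, and bodies spread from 7.05% to 76.3%.

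At some genes the start in the promoter table lay apart from the annotated gene end and gave another value. Inha was at 18.0% by the gene end, a mean of 27 cytosines at 1.40% inside the neighbouring Obsl1 and 10 cytosines at 62.7% in its own first 500 bp. Around its start in the promoter table, 532 bp further in, it was at 62.7% (45.7% to 72.7%). Tgfb2, which had no cytosine at the gene end, was at 1.95% over 76 cytosines around the table's start. Inhba, another activin subunit gene, was at 15.7% over 42 cytosines there (11.6% to 18.6%). The outermost start of Bmpr1b in the promoter table, 187321 bp into the gene, was at 54.7% over 22 cytosines (43.7% to 65.9%). This was far above the 7.33% at its annotated gene end. Its starts 237997 and 238165 bp into the gene were each at 19.9% over 6 cytosines (14.5% to 25.9%).

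The number of CpGs in the promoter sequence moved with the level. Of 35 promoter sequences for 30 members, each 300 bases long, 19 had at least 3 assayed cytosines. Gdf10 with 42 CpGs and Chrd with 34, whose start ends were at 24.5% and 50.2%, are not among the 19. Their sequences had 1 and 0 assayed cytosines. All 311 assayed cytosines in the members' promoters fell on a C of the RefSeq sequence. The 2 sequences with at most 5 CpGs were at 61.8% (Inha and an inner start of Bmpr1b), the 3 with 6 to 10 CpGs ran from 13.03% to 56.3%, and the 14 with more were all at or under 5.76%, the highest being Bmp4 with 12 CpGs. Across the 19 sequences Spearman's rho was -0.67 and Pearson's r was -0.72. The points share libraries and some share a gene, so these describe the sequences only. Across all 8141 measured promoters rho was -0.48. Their median fell from 45.4% with at most 5 CpGs to 1.47% with 11 to 20.

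**Figure D3:**
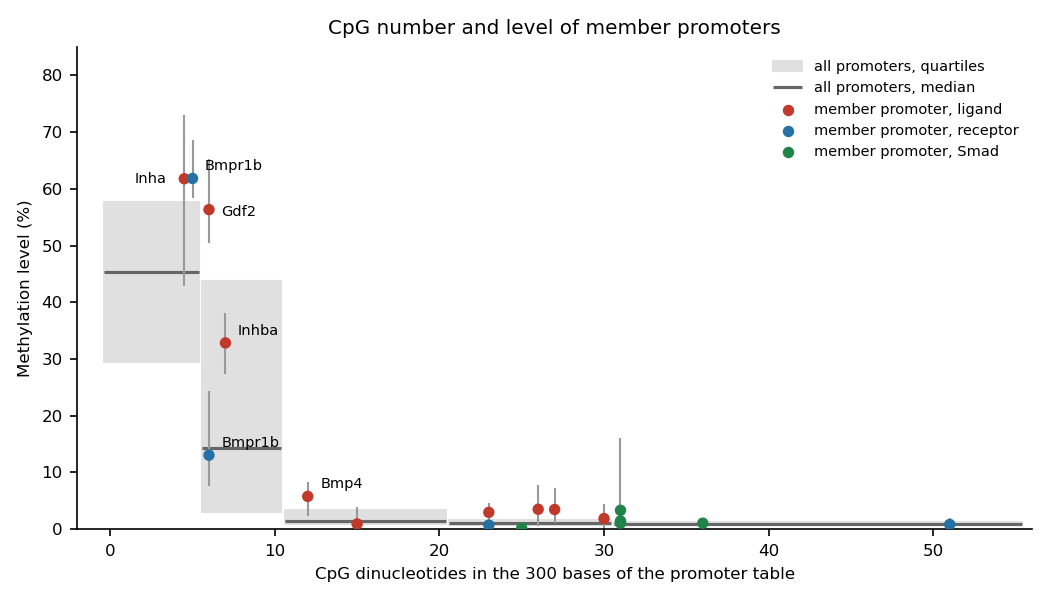
Methylation level (%) of member promoters against the number of CpG dinucleotides in their 300 bases; points are the 10 libraries summed, vertical lines the range over libraries, and grey boxes and bars the quartiles and medians of all measured promoters in classes of CpG number (Inha is drawn slightly to the left to part it from Bmpr1b). Members with few CpGs are at 13.03% to 61.8%, and those with more than 10 CpGs are at or under 5.76%.

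The ends of the 14 genes without strand also ran from low to high. They mix starts and finishes that cannot be told apart here, so they say nothing about starts alone. Of the 53 measured ends of all members, 19 were at 20% or more, against 36.6% over 18742 ends of all genes. Among the ends without strand, Tgfb3, a TGF-beta ligand, was at 63.3% at its lower end (52.5% to 70.1%), and Gdf5, a ligand of joint formation, was at 60.7% at its lower end (55.9% to 64.1%). Lefty1, a Nodal inhibitor, was at 31.01% at its lower end (17.8% to 36.7%), where all 21 cytosines also lie in the long noncoding RNA gene Gm39715. Lefty2 was at 47.2% over only 3 cytosines (44.3% to 49.4%). Gdf3, a Nodal-related ligand of pluripotent cells, was at 32.7% over 32 cytosines at its upper end (30.2% to 35.6%). Low ends included Bmp2 at 1.81%, Gdf6 at 3.16%, Smad2 at 0.757% and Smad4 at 1.02%. Bmp3 was between, at 11.4% over 6 cytosines (4.68% to 18.8%).

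Of the 9 genes with strand and both ends measured, 7 had the finish above the start with no overlap between the libraries: Acvr1, Acvr2b, Bmp4, Bmp8b, Inha, Smad6 and Tgfb1. The same pattern was found in 77.3% of 3297 genes, so Bmp4 followed the common direction. Inha turns with the choice of start: around the start in the promoter table it was at 62.7% (45.7% to 72.7%), above its finish at 36.6% (30.6% to 44.3%). At Acvr1, a BMP type I receptor, the finish was at 78.7% over 6 cytosines (69.4% to 86.5%) and the start at 2.20%. All 13 cytosines of the Acvr1 start also lie in Upp2, a protein-coding gene on the opposite strand. Acvr2b, an activin type II receptor, was at 83.3% over 6 cytosines (78.1% to 85.9%) and 1.04%. Bmp8b, a ligand of germ cell induction, was at 79.8% over 8 cytosines (74.03% to 84.3%) and 5.58%. The smallest gap of the 7 was at Tgfb1, at 12.5% (9.35% to 15.8%) and 1.34% (0.553% to 1.97%).

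Gdf15 and Gdf7 went the other way, with the start above the finish in all libraries, as in 6.25% of genes. Gdf15 was at 49.5% at its start and 3.90% at its finish (3.08% to 6.42%), and its 21 body cytosines were also low, at 9.19%. Gdf7, a ligand of the dorsal neural tube, was at 8.38% (7.12% to 10.7%) and 2.88% (1.85% to 3.49%), and all 64 cytosines of its finish end lie within Ldah. Its start was at 20.8% over 18 cytosines more than 500 bp upstream and at 2.57% over 40 cytosines in the first 500 bp. With windows of 500 bp its start was at 2.95%, and with a coverage of at least 20 it was at 19.9%. Both ends were also measured in Bmp7, Gdf9 and Smad7, whose strand is not in the table. At Smad7, 36 of 77 cytosines of the lower end and 4 of 9 of the upper end lie in long noncoding RNA genes. Bmp7, a ligand of kidney and eye development, was at 55.2% (49.5% to 58.8%) at the lower and 1.21% at the upper end. Gdf9, an oocyte factor, was at 1.23% at the lower and 67.9% (59.01% to 74.9%) at the upper end, and the inhibitory Smad7 at 1.12% and 55.6% (52.4% to 59.0%). The library ranges of the ends were thus apart in 12 of 12 members, beside 83.8% of 4193 genes.

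**Figure D4:**
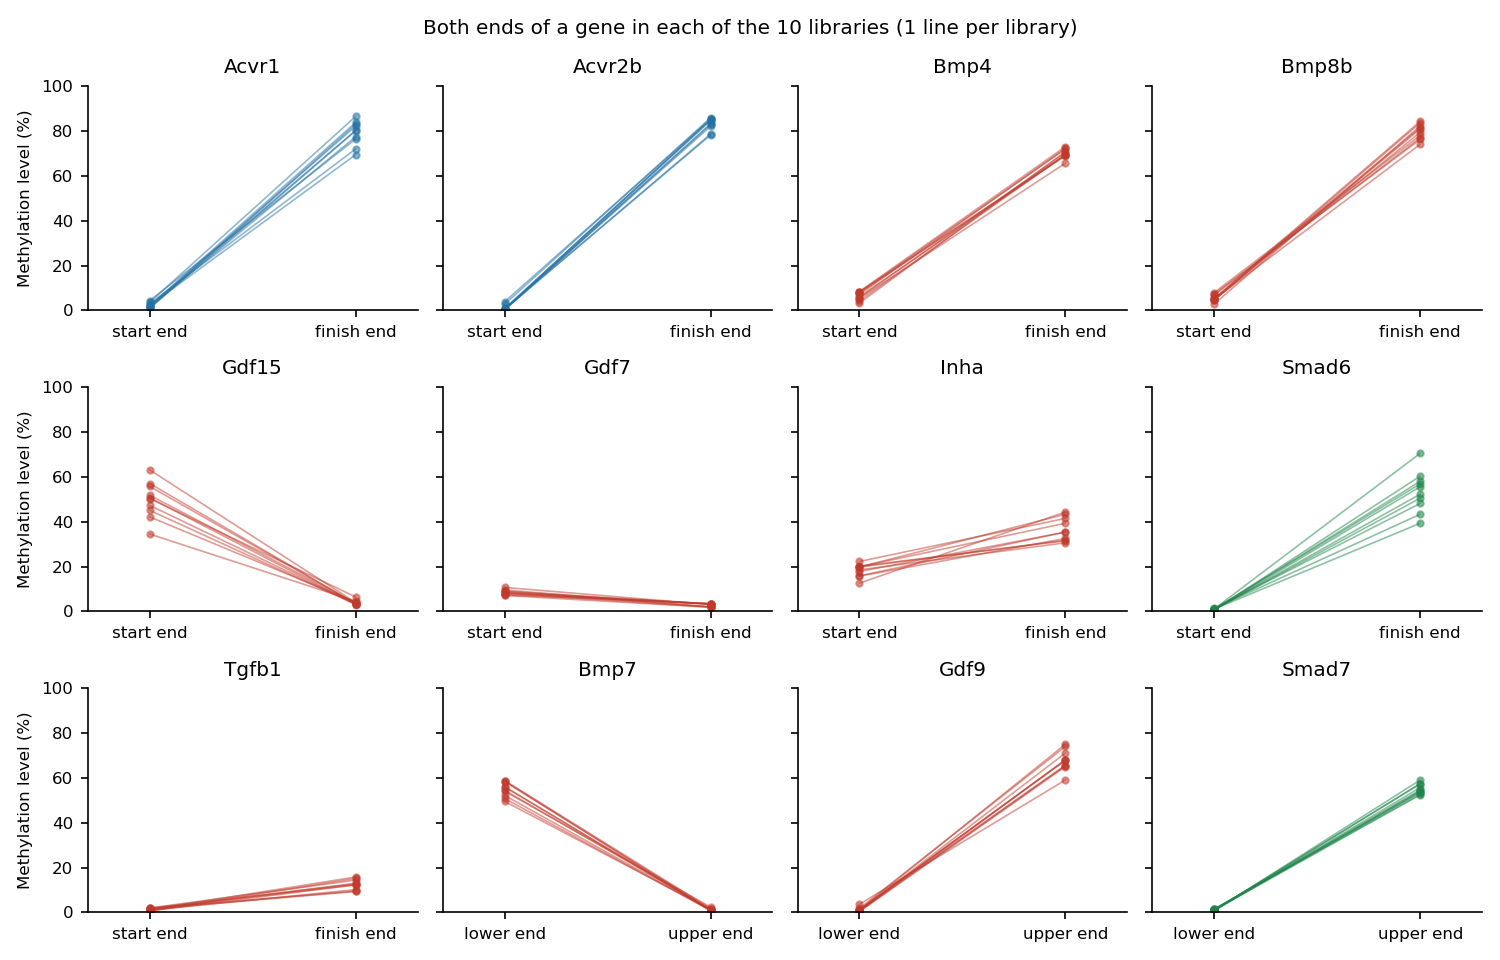
Methylation level (%) at both ends of the 12 members with both measured, 1 line per library (10 per gene) and 1 panel per gene; start and finish ends where strand is known, lower and upper ends otherwise. In each panel all lines run in 1 direction, downward in Gdf15, Gdf7 and Bmp7.

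The 10 measured finish ends had a median of 57.4% (49.4% to 64.1%), and 7 were at 20% or more, against 83.1% over 4286 finish ends of all genes. Bmp10, a ligand of the heart, was at 62.1% at its finish (56.95% to 67.8%) and had no measured start. The median is sensitive to the window, at 27.1% within 500 bp and at 36.6% with at least 10 cytosines per region.

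Smad6 had the widest spread between libraries of the regions with 10 or more cytosines. Its finish end was at 52.7% over 34 cytosines, which lie 719 to 915 bp inside the gene. From the lowest upward, libraries 1, 5, 7, 9, 2, 3, 10, 8, 6 and 4 were at 39.3%, 43.3%, 48.1%, 50.5%, 52.3%, 55.6%, 56.8%, 57.97%, 60.3% and 70.5%. Library 4 lay furthest from its neighbour in this order, at 70.5% against 60.3% in library 6. Whether the order follows the groups cannot be told, since no library is tied to a group. The range was 31.2 points, against a median of 9.50 points over 1520 gene regions of similar level and cytosine number, none of which was as wide. That comparison took no account of coverage or of how closely the cytosines lie. Library 4 had the lowest mean coverage there, 18.8 reads, and library 5 the next lowest, 21.2, while library 1 had 40.7. The part of coverage in this spread was not tested. The Smad6 start ranged only from 0.689% to 1.35%.

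The 39 measured bodies had a median of 39.6% (39.2% to 43.9% over the libraries), against 57.6% (55.7% to 59.6%) for 14131 genes. The member median depends on the window, at 35.3% with 500 bp and 58.9% with 2000 bp. The value for all genes was read with 1000 bp only. At 20% or more were 32 of the 39, which is 82.1%, against 90.9% of all genes. The Wnt ligands and Frizzled receptors, another pathway of the gastrula, had a body median of 25.1% (22.6% to 27.01%; 26 bodies), and the Fgf ligands and receptors one of 42.9% (36.7% to 47.9%; 19 bodies). The range of the members overlapped that of the Fgf genes and lay between those of the Wnt genes and of all genes. At the start end, 0 of 18 Wnt and Frizzled genes and 4 of 17 Fgf genes were at 20% or more. No test of these differences was made.

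Role medians differed in the body as well, although single genes of the roles overlapped in level. The 7 receptors had a body median of 61.2% (57.9% to 64.3%), from Bmpr1a, a BMP type I receptor, at 17.9% (16.7% to 19.2%) to Bmpr2 at 72.4% (62.1% to 77.6%). The 8 Smads had a median of 57.3% (52.8% to 60.7%), from Smad7 at 22.4% (20.7% to 24.4%) to Smad5 at 76.3% (71.8% to 81.9%). The 22 ligands had a median of 37.4% (33.5% to 39.99%), so their library medians lay wholly below those of receptors and Smads. The lowest ligand bodies were Bmp2 at 7.05% (6.09% to 7.95%), Gdf15 at 9.19% (7.55% to 11.1%), Gdf6 at 9.45% (6.65% to 15.9%) and Bmp4 at 15.1% (13.3% to 18.3%). Of the 64 Bmp4 body cytosines 54 were under 20%, and of the 72 of Bmp2 68 were. Tgfb3 at 70.4% (63.6% to 74.7%) and Gdf11 at 68.6% (64.4% to 71.2%) were the highest ligands. The 2 measured antagonist bodies were Chrd at 10.5% (6.50% to 15.5%) and Grem1 at 18.2% (14.3% to 24.1%). Bmp4 changes with the window, since its methylated block joins the body at 500 bp, where the body is at 35.3%.

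Gene length moved with the roles. Genes with measured bodies had a median length of 15451 bp for ligands, 92276 bp for receptors and 65018 bp for Smads. Levels were therefore also read by distance from the start. In members with strand the median was 1.55% in the first 500 bp, 10.2% from 1001 to 2000 bp, 26.1% from 2001 to 5000 bp, 55.3% from 5001 to 10000 bp and 64.4% beyond 20000 bp. From 2001 to 5000 bp, 5 ligands had a median of 10.2% (7.97% to 14.2% over the libraries), 2 Smads one of 22.9%, and 2 receptors one of 57.2%. Beyond 20000 bp, 4 ligands were at 49.4% (45.6% to 52.7%), 4 Smads at 64.7% (62.4% to 67.2%) and 7 receptors at 72.4% (65.01% to 74.5%). The ligands were thus below the receptors in both of these distance ranges, in few genes. This did not hold at all distances. From 1001 to 2000 bp, 7 ligands were at 9.19% and 4 receptors at 6.90%. From 10001 to 20000 bp the library ranges of ligands (43.2% to 52.7%) and receptors (52.3% to 61.6%) overlapped. The part of gene length in the role differences was not tested. Body level also fell with the number of assayed cytosines per kb, with a Spearman's rho of -0.58 across 39 genes that share the same libraries.

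**Figure D5:**
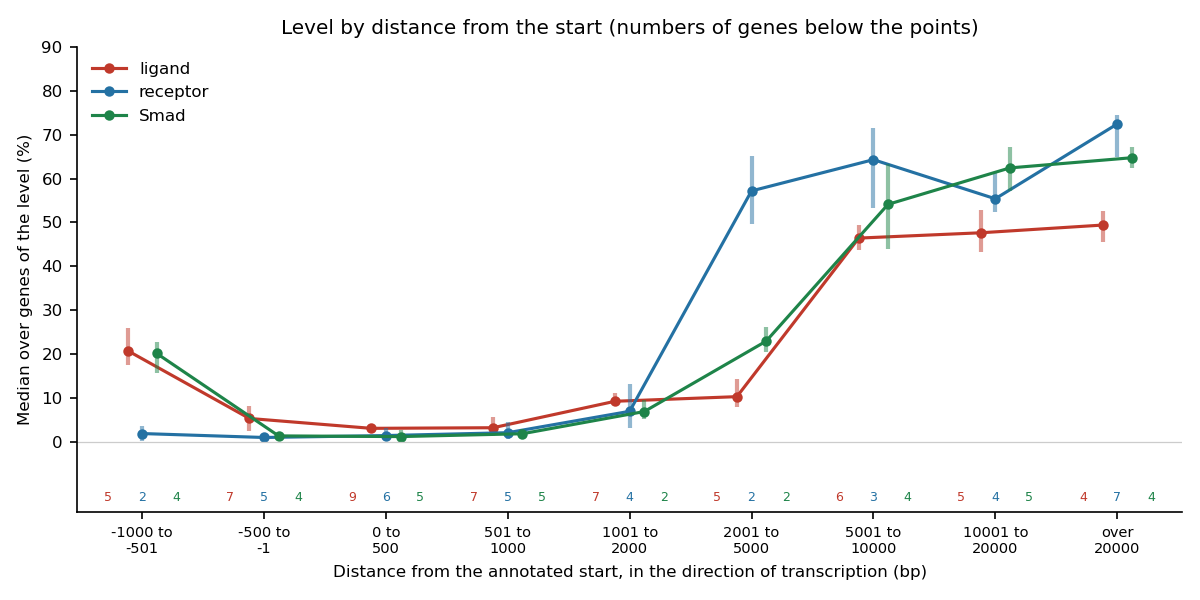
Median over genes of the methylation level (%) by distance from the annotated start in bp, for ligands, receptors and Smads with strand; vertical bars are the range of that median over the 10 libraries and the coloured numbers under the points are the numbers of genes. Levels stay under 10% from 500 bp before the start to 2000 bp after it and rise beyond, with ligands lowest beyond 20000 bp.

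In the wider pathway, 57 further genes from a list of ligands, receptors, antagonists, processing factors, regulators and targets were read in the same way. Of 32 measured start ends among them, 5 were at 20% or more, which is 15.6%. They were Furin, a protease that cleaves ligand precursors, at 64.3%, Cer1, an antagonist of the anterior endoderm, at 58.6%, Inhbe at 40.5%, the Nodal co-receptor gene Tdgf1 at 32.4% and the endothelial co-receptor gene Eng at 29.01%. All 6 measured target starts were under 5%, from the BMP target Id3 at 1.03% to Msx2 at 2.40%, as were 64.7% of all gene starts. The 46 measured bodies of the wider list had a median of 52.2% (48.8% to 53.4%). Its 12 antagonist bodies had a median of 57.6% (52.9% to 59.99%), unlike the 2 low ones above. Its 4 ligand bodies, at 46.1% (40.9% to 48.3%), and its 11 receptor bodies, at 51.7% (47.7% to 55.1%), overlapped in their library medians. At the start, the 6 measured receptors of the wider list had a median of 3.86% (library medians 2.33% to 6.64%), and 2 were at 20% or more. That range overlapped the 4.36% to 7.85% of the member ligands. The 3 measured ligand starts of the wider list had a median of 17.8% (10.99% to 25.7%). The 5 measured starts of Smad regulators had a median of 2.47%. Nodal itself was at 4.42% over 36 cytosines at its start.

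The copies Bmp8a and Bmp8b, and Lefty1 and Lefty2, are close in sequence, and the sources used here do not state how reads that fit both copies were placed. Bmp8a was at 2.07% at its start and 37.1% in its body, and Bmp8b at 5.58% and 39.6%. Their body ranges over the libraries, 34.03% to 42.6% and 35.5% to 44.6%, overlapped. Measured regions of Bmp5, an embryonic ligand of bone and heart, were limited to its body, at 44.8% (40.2% to 48.8%).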

How the data were processed

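Per the labels' protocols, DNA of single embryos was purified on columns before library preparation with NEBNext Ultra II reagents. Per the submitters' processing notes, Trim Galore, Bismark and methylKit were used with mm10; the sources used here state no version, role, setting or read deduplication. Per the file headers, the deposited table holds raw counts of coverage, methylated and unmethylated reads per CpG cytosine, strands apart and not normalized. It was checked that both kinds of reads sum to the coverage and that each cytosine has at least 10 reads in every library. No label matches any of the 30 per-sample columns to a sample, so the permutation test between groups was not run.

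Levels are unweighted means over cytosines of methylated reads over coverage, with counts of 10 libraries summed, or per library. Ends span 1000 bp either side of each RefSeq gene end; a cytosine near both ends goes to the nearer. Regions need 3 cytosines. Strand came from the RefSeq promoter table, which has 30 members; for 14 the planned lower and upper ends were used. Alternatives were a coverage minimum of 20, windows of 500 and 2000 bp, at least 10 cytosines, read weighting, the plus strand alone, leaving out each library and, chosen after seeing the data, the start in the promoter table. Members and lists were chosen with earlier results of these data known. Values over the libraries were given for Bmp4, for ends at 20% or more and for the extremes of each role; others were added as examples. Window means were tested on simulated data. Python 3.11.15, NumPy 2.4.6, pandas 2.3.3 and SciPy 1.17.1 were used.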

Additional observations from a re-analysis of the deposited data

Results flagged for a closer look

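In 5 of the 92 measured member regions, 1 library stood apart from the other 9, with a gap to its neighbour that was wide for the whole range by Dixon's criterion at the 95% level. The 10 libraries mix both groups, and chance flags about 1 in 20 sets of values. Library 4 was at 4.34% at the start end of Bmp8a, where the next library was at 2.44%. Library 2 was at 3.64% at the lower end of Gdf9, next to 1.78%, and library 10 at 6.42% at the finish end of Gdf15, next to 4.55%. Library 5 was at 1.55% at the lower end of Smad2, next to 0.901%. These 4 are high values at ends that were low in every library. The fifth was a low value, 17.8% in library 5 at the lower end of Lefty1 over 21 cytosines, where the next library was at 27.3%. Their causes were not tested.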

How the results depend on the processing

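Bmp4 was higher at its finish than at its start in each of the 15 settings that measured both ends, out of 18, with the finish between 69.9% and 71.7% and the start between 5.77% and 7.51%. Within 500 bp its finish end had too few cytosines, and its start end had too few with a coverage of at least 20 or on the plus strand alone. Leaving out any 1 library moved none of the 9 main results by more than the SD of the libraries. Dropping 1 of 10 libraries can hardly shift a summed level by that much, so this does not show that the results are stable. The other settings moved 24 of 60 values by more than that SD, or a count by over 1.5 times. With a coverage of at least 20, the medians were 4.325% for ligand starts, 16.8% for antagonist starts, 47.7% for finish ends and 44.9% for bodies. Windows of 500 bp gave 4.36%, 16.6%, 27.1% and 35.3% in that order. Windows of 2000 bp gave 8.46% for ligand, 2.20% for receptor and 3.13% for Smad starts, 68.3% for finish ends and 58.9% for bodies. With at least 10 cytosines antagonist starts were at 15.1% and finish ends at 36.6%. Read weighting put bodies at 42.9%. On the plus strand alone ligand starts were at 4.49% and antagonist starts at 17.0%. With starts from the promoter table ligand starts were at 7.504%, antagonist starts at 15.1% and bodies at 43.2%. The number of starts at 20% or more was 2 in place of 4 with a coverage of at least 20, with at least 10 cytosines and on the plus strand alone, 3 with windows of 500 bp, 5 with starts from the promoter table and 6 with windows of 2000 bp. Which genes have enough cytosines changes with each setting. No paired analysis was possible because the labels tie none of the columns to an embryo.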
